A study of Rattus norvegicus with 16 samples.

Results

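The genes of the proteasome were followed through the kidneys of 16 male Sprague Dawley rats. All rows of the deposited expression table whose symbol begins with Psma, Psmb, Psmc, Psmd or Psme and a digit were taken, which gave 45 of 35849 genes. The rats entered the study at 6 to 8 weeks of age and formed 4 groups of 4. The normal group received citrate buffer and a normal diet. The diabetic nephropathy (DN) group received 45 mg/kg streptozotocin, a toxin of the insulin-producing beta cell, and a high-glucose and high-fat diet, and rats with a blood glucose over 16.7 mmol/L were kept. The remaining groups, named SIN (20 mg/kg) or SIN (40 mg/kg), were made diabetic by the same injection and diet and were given sinomenine, an alkaloid of the plant Sinomenium acutum, every day for 8 weeks at the dose in their name, while DN rats received vehicle. The model destroys beta cells with a chemical, so it stands for insulin deficiency combined with diet, and the normal group differs from the others in both diet and injection. The labels describe 1 kidney RNA library a rat, with nothing on the part of the kidney that was sampled.

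The proteasome is the protease that degrades most short-lived and damaged proteins once they carry a ubiquitin chain. Its 20S core is a barrel of outer alpha rings, which gate the entry, and inner beta rings, in which the subunits made from Psmb5, Psmb6 and Psmb7 cut the protein chain. The 19S cap recognises ubiquitin, unfolds the substrate with a ring of ATPases (Psmc genes) and feeds it into the core, and other activators such as PA28 (Psme1, Psme2, Psme3) and PA200 (Psme4) can take the place of the cap. Under interferon and in immune cells Psmb8, Psmb9 and Psmb10 replace the catalytic subunits, and this immunoproteasome supplies many of the peptides shown by class I MHC molecules. In the kidney the proteasome is at work in every cell, while the immunoproteasome is known mainly from leukocytes and inflamed tissue.

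By role the 45 genes were 8 of the alpha ring, 7 constitutive genes of the beta ring, the 3 immunoproteasome genes, the thymus-specific Psmb11, 6 ATPases and 11 other subunits of the 19S cap, 3 chaperones of cap assembly (Psmd5, Psmd9, Psmd10) and 4 activators. The remaining 2, Psmc3ip and Psme3ip1, share the letters but are no subunits: Psmc3ip acts in meiotic recombination, and Psme3ip1 binds the activator made from Psme3. The gene of the alpha 3 subunit stands in the table as Psma3l, which RefSeq lists as a synonym of Psma3.

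The promoters of 5 genes on which the results below turn are shown: Psmb5 and Psme4, which differed between normal and DN rats, and the 3 immunoproteasome genes, which were high together in 1 rat. The counts used here are per gene and do not locate the start of transcription. Each covers 250 bases before to 50 after the start of the gene in RefSeq on the GRCr8 build, 5′ to 3′ on the strand of the gene. Capitals mark the core of the antioxidant response element in Psmb5 and Psme4, and the core of the interferon response element in the others.
Psmb5, chr15:32047330-32047629, minus strand: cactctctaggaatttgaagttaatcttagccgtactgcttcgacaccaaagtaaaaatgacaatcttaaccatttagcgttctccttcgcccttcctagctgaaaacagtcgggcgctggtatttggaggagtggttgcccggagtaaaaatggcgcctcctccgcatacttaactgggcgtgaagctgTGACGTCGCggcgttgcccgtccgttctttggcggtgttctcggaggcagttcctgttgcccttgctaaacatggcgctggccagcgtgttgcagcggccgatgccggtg
Psme4, chr14:108706393-108706692, plus strand: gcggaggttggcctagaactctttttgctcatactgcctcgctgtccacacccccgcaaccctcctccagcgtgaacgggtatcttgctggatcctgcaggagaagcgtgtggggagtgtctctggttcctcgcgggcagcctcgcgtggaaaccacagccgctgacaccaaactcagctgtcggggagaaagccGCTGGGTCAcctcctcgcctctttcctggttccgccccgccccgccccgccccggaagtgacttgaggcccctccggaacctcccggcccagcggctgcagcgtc
Psmb8, chr20:4656982-4657281, minus strand: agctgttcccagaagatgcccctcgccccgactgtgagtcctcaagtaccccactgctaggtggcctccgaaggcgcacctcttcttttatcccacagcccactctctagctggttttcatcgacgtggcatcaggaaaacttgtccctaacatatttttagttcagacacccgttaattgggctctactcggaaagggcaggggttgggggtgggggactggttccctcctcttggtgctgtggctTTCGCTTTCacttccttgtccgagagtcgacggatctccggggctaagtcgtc
Psmb9, chr20:4668750-4669049, plus strand: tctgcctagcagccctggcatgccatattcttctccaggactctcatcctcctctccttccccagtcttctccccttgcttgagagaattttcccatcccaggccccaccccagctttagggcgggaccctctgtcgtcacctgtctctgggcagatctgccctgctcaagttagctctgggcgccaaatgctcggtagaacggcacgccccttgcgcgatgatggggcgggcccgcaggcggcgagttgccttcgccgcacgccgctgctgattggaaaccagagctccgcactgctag
Psmb10, chr19:50743243-50743542, minus strand: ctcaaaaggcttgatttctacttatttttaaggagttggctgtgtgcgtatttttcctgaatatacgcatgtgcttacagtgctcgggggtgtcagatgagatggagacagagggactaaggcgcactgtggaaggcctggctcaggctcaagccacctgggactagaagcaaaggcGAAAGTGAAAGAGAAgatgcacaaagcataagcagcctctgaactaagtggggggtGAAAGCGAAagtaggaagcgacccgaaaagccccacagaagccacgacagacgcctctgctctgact
Both cores were searched on both strands, as TGACNNNGC for the antioxidant element, which NRF1 (Nfe2l1) and NRF2 bind, and as GAAANNGAA for the interferon element, and the letters of these motifs can overlap. Of the 45 genes, 40 had a promoter in the RefSeq table. TGACNNNGC was found in 8 of the 40 (20%), namely Psma3, Psmb2, Psmb5, Psmb6, Psmd1, Psmd3, Psmd9 and Psme4, and in 12.1% of all 33469 promoters. GAAANNGAA was found in 8 of the 40 (20%), namely Psma4, Psmb2, Psmb3, Psmb8, Psmb10, Psmd7, Psmd11 and Psme2, and in 9.71% of all promoters. Psmb10 held 3 copies of it, 2 of them overlapping, and the window of Psmb9 held none. A match describes letters in a window and shows no binding.

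The libraries held between 19616312 and 25217030 estimated counts. Levels are given as CPM, the counts of a gene scaled to a common library size, after TMM scaling over all 16 rats. Markers of kidney epithelium were present in all rats, with a summed level of 9249 to 14034 CPM for 6 proximal tubule markers and of 253 to 508 CPM for 4 podocyte markers. The sum of 4 thick ascending limb and distal tubule markers was 3991 to 4867 CPM in normal rats. In DN rats this sum was 2432 to 3612 CPM, without overlap. Umod alone read 2921 to 3596 CPM in normal and 1509 to 2302 CPM in DN rats. Slc12a1 overlapped, at 456 to 955 and 354 to 937 CPM, as did Slc12a3 and Calb1. The mean of Calb1 was higher in DN rats, at 183 against 151 CPM. Of the 4 markers 1 was called lower in DN rats (25%), against 10.8% of all genes tested. The sum of 3 collecting duct markers overlapped, at 320 to 806 CPM in normal and 607 to 1445 CPM in DN rats. The part of these segments in the DN over normal values below was not tested. A pair of libraries stood apart. Replicate 2 of the normal group had 1328 CPM of 16 leukocyte markers against 585 to 937 CPM in the other 15 rats, and replicate 3 of the DN group had 717 CPM of 8 muscle and connective tissue markers against 175 to 320 CPM. Of the 1328 CPM, 1012 CPM came from Cd74 alone. Normal replicate 2 was the highest rat in 10 of the 16 leukocyte markers. Ptprc and Lcp1 were not among these, at 12.2 and 41.0 CPM there and 14.2 and 46.4 CPM in normal replicate 3. In bulk tissue a change in the number of cells of a type and a change of RNA per cell cannot be told apart. The serial numbers in the labels run on within each group, while the numbers that join columns to rats do so in the normal group only. The labels do not say whether either gives an order of preparation. If the serial numbers do, that order and condition cannot be told apart.

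Proteasome genes were abundant and steady. Together they took 3485 to 4169 CPM, or 0.348% to 0.417% of a library, and the 4 groups overlapped in this sum. Per kilobase of transcript, Psma4 was the highest with 290 CPM per kb, and the activator gene Psme1, the beta gene Psmb4 and the alpha gene Psma7 followed with 159, 155 and 153 CPM per kb. Psmd10, the chaperone gankyrin, was the lowest gene tested with 3.63 CPM per kb. The median SD of log2 CPM within groups was 0.144 over the 43 proteasome genes tested, 0.173 over genes of at least 20 CPM and 0.255 over all genes tested. Psma8, the alpha subunit of the testis, and Psmb11 had under 10 counts in all 16 rats and were not tested. Psmb11 had no count in any library, which allows up to 3 counts a library.

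The first comparison asked whether diabetic kidneys differed from normal ones. Of 43 genes tested, 3 were higher in DN rats at an adjusted p under 0.05 (edgeR's quasi-likelihood test) and 3 were lower, 6.98% in each direction. Of all 15775 genes tested 8.74% were higher and 10.8% were lower by the same rule, so the share called among proteasome genes was not above that background. The higher genes were the catalytic Psmb5 and the ATPases Psmc3 and Psmc4. The lower genes were the activator Psme4, the ATPase Psmc6 and the alpha subunit Psma3l. The median log2 fold change was 0.09 over the 43 genes and 0.00 over all genes.

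**Figure D1:**
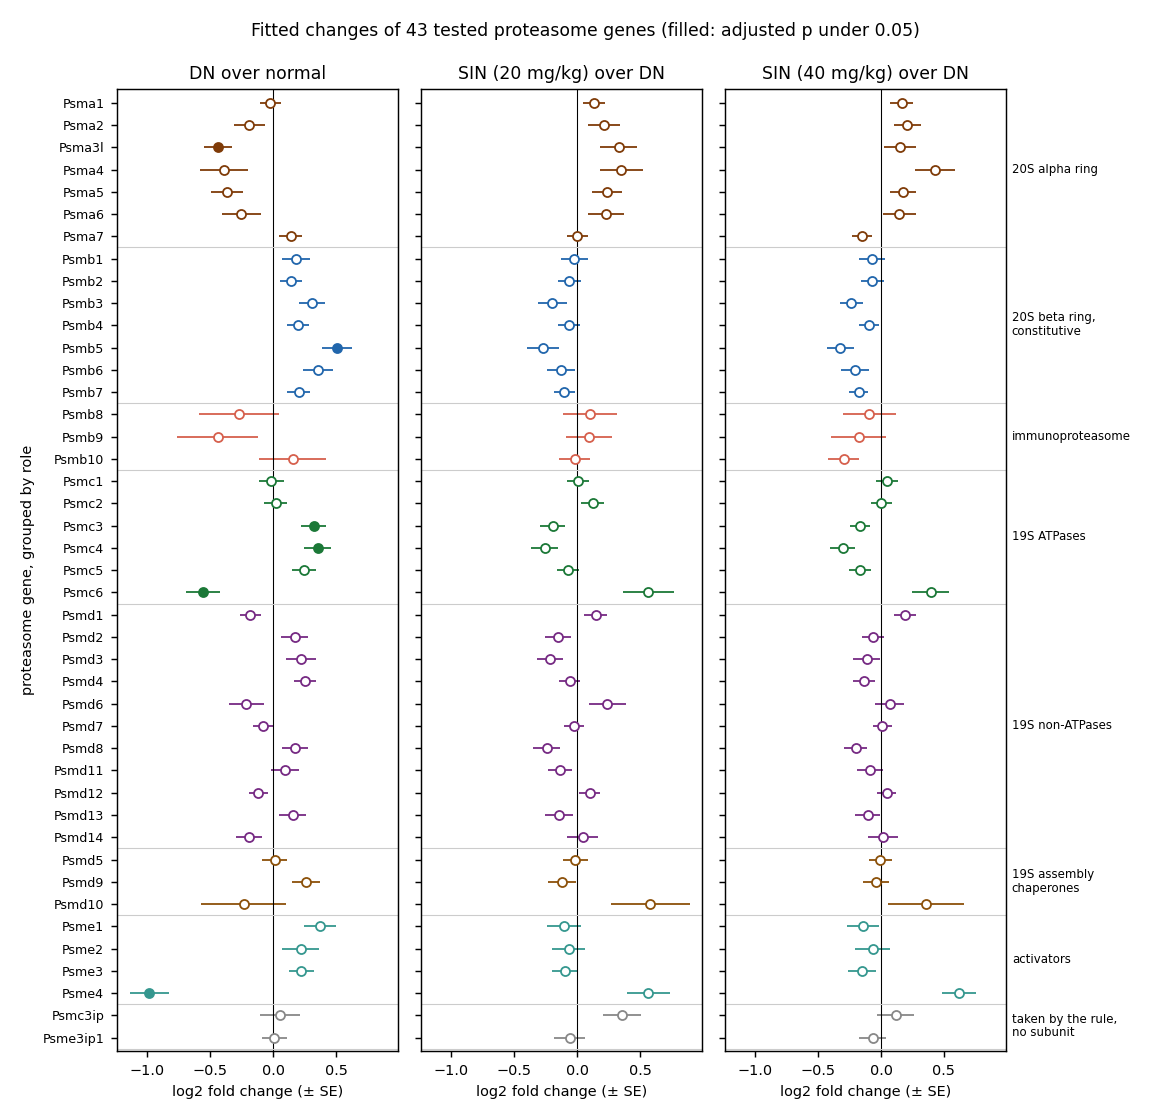
Log2 fold change with its standard error (horizontal axis) of each of the 43 proteasome genes tested (vertical axis, grouped and coloured by role) in DN over normal, SIN (20 mg/kg) over DN and SIN (40 mg/kg) over DN, with filled points at an adjusted p under 0.05. In DN over normal 6 points are filled and the beta ring lies right of 0, and in both SIN comparisons, which share the DN rats, no point is filled.

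Psme4 (ENSRNOG00000060340) encodes PA200, an activator of the core that works without ubiquitin and is known for the degradation of acetylated histones. It read 97.0, 76.8, 112 and 79.6 CPM in the normal rats and 35.6, 53.3, 47.0 and 48.5 CPM in the DN rats. Every DN rat was below every normal rat. The log2 fold change was -0.98 ± 0.16 (SE, n = 4 rats a group), with an adjusted p of 0.0064 by edgeR's quasi-likelihood test, and it was called in all 7 alternative settings with all rats and with each of the 8 rats left out. Psme4 is the longest of the 45 genes with 7130 bases, and long genes were lower in DN rats as a class. The median log2 fold change was -0.15 over 1434 genes longer than 5000 bases and 0.06 over 4787 genes of up to 1500 bases. Over length classes divided at 1500, 3000 and 5000 bases, the share called lower rose from 6.56% through 9.56% and 15.2% to 20.0%. The shares with a log2 fold change of -0.9 or lower were 6.68%, 4.77%, 5.80% and 8.58% in the same order. The part of length in the Psme4 value was not tested.

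Psmb5 (ENSRNOG00000013386) encodes the subunit with chymotrypsin-like activity, the target of proteasome inhibitors such as bortezomib. Its level was 114, 121, 88.9 and 105 CPM in normal rats and 163, 157, 127 and 159 CPM in DN rats. The lowest DN rat, replicate 3, was above the highest normal rat. The log2 fold change was 0.50 ± 0.12 (adjusted p = 0.0226, edgeR's quasi-likelihood test). The other catalytic genes did not pass. Psmb6, with caspase-like activity, averaged 53.4 ± 7.7 CPM (SD, n = 4) in normal and 68.0 ± 6.7 CPM in DN rats, and its adjusted p was 0.0624 by edgeR's quasi-likelihood test. All 16 values of Psmb6 were fractions. Psmb7, with trypsin-like activity, averaged 127 ± 11 CPM and 146 ± 7.9 CPM, with an adjusted p of 0.136 by the same edgeR test.

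The ATPase ring was divided. Psmc3 (ENSRNOG00000011414) read 141, 141, 121 and 119 CPM in normal rats and 175, 165, 149 and 161 CPM in DN rats. Psmc4 (ENSRNOG00000018994) read 93.9, 101.6, 75.9 and 85.0 CPM in normal rats and 115, 111, 102.5 and 125 CPM in DN rats. Neither gene overlapped between the groups, and the log2 fold changes were 0.32 ± 0.10 and 0.35 ± 0.11, with adjusted p-values of 0.0435 and 0.0483 by edgeR's quasi-likelihood test. Psmc6 (ENSRNOG00000007203) moved the other way, from 39.8, 33.1, 44.8 and 47.7 CPM to 23.2, 29.6, 30.0 and 29.2 CPM. All DN rats were below all normal rats, and the log2 fold change was -0.56 ± 0.13 (adjusted p = 0.0233, edgeR's quasi-likelihood test). Psmc1, of the same ring of 6, averaged 116 ± 9.6 CPM (SD, n = 4) in normal and 114 ± 9.3 CPM in DN rats, and Psmc2 averaged 91.98 ± 6.6 and 92.9 ± 6.9 CPM. Each cap holds 1 copy of all 6 proteins, whose amounts were not measured here.

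**Figure D2:**
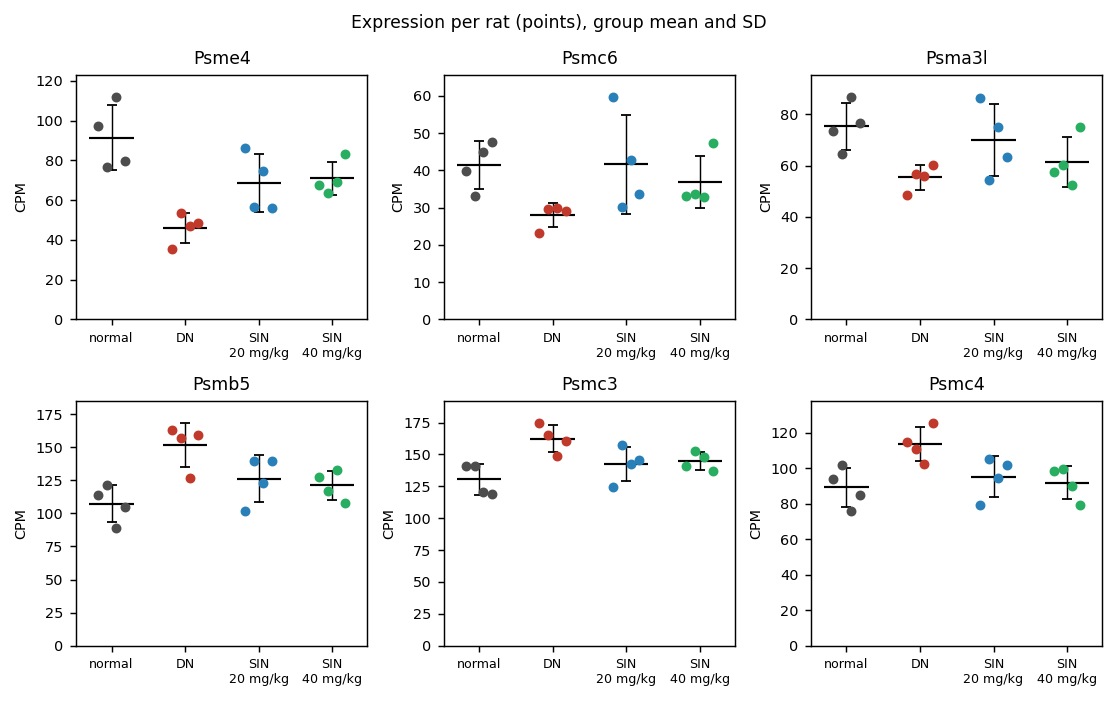
CPM (vertical axis, from 0) of the 6 proteasome genes with an adjusted p under 0.05 in DN over normal, 1 point per rat in each of 4 groups, with the mean as a line and the SD as a bar. The DN points of Psme4, Psmc6 and Psma3l lie below all normal points and those of Psmb5, Psmc3 and Psmc4 above them, while the SIN (20 mg/kg) points overlap the DN points for Psma3l, Psmb5, Psmc3 and Psmc4.

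In the alpha ring 6 of the 7 tested genes had a fold change below 0 in DN rats under each scaling tried, with a median of -0.25, and 1 was called. Over all genes tested, 7904 of 15775 fold changes were above 0. Psma3l (ENSRNOG00000007851) read 73.3, 64.6, 86.8 and 76.7 CPM in normal and 48.6, 56.9, 55.9 and 60.1 CPM in DN rats, again without overlap. Its log2 fold change was -0.44 ± 0.11 (adjusted p = 0.0261, edgeR's quasi-likelihood test). All 16 values of Psma3l were fractions, as estimates are where reads are shared between copies of a gene, so its level is uncertain. Psma4, the most abundant member, averaged 367 ± 62 CPM in normal and 279 ± 69 CPM in DN rats and did not pass (adjusted p = 0.16, edgeR's quasi-likelihood test). Of the Psma4 values 93.75% were fractions, so the level of this gene is uncertain too. Psma7 was the exception to the direction, with a log2 fold change of 0.14 ± 0.09.

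In the beta ring all 7 constitutive genes had a fold change above 0 under each scaling tried, from 0.14 to 0.50 with a median of 0.20, and Psmb5 alone was called. The rings can be set against each other within a rat. The mean log2 CPM of the 7 beta genes minus that of the 7 alpha genes was -0.14, 0.15, -0.31 and -0.16 in normal rats and 0.53, 0.46, 0.25 and 0.25 in DN rats. It was -0.27, 0.26, -0.06 and 0.22 at 20 mg/kg and 0.05, 0.11, 0.19 and -0.17 at 40 mg/kg. The DN rats were above all normal rats in this difference. The SIN (20 mg/kg) group overlapped both, and the DN rats only through replicate 2, at 0.256 against 0.252 in the lowest DN rat. All SIN (40 mg/kg) rats were below the DN rats, and they overlapped the normal rats. The difference lies within a library, so scaling between libraries does not enter it, and it carries no test because its genes were put together with results of these data known.

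**Figure D3:**
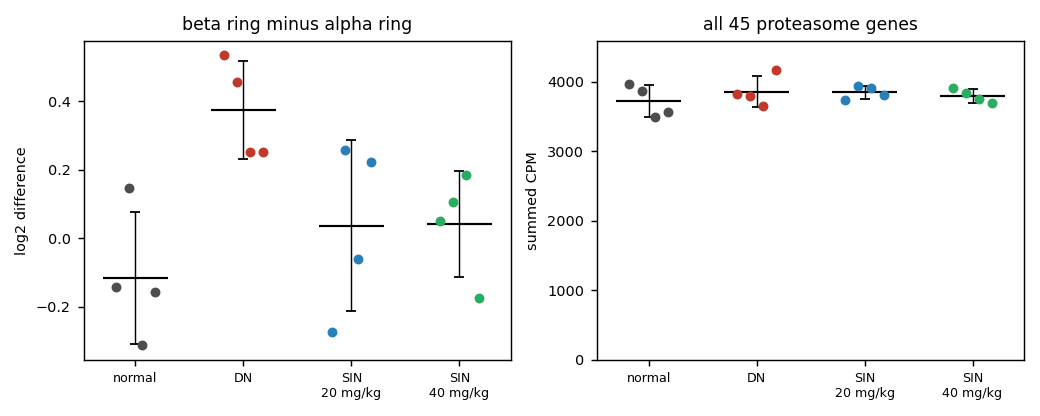
Left, the mean log2 CPM of the 7 beta ring genes minus that of the 7 alpha ring genes in each rat, and right, the summed CPM of all 45 genes (axis from 0), by group, with means as lines and SDs as bars. The DN rats lie at 0.25 to 0.53 on the left and the normal rats at -0.31 to 0.15, while the sums on the right overlap in all 4 groups.

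Among the 11 other subunits of the cap, 0 were called by edgeR's quasi-likelihood test, and 1, the ubiquitin receptor Psmd4, had an unadjusted p under 0.05. Psmd4 averaged 74.4 ± 5.8 CPM (SD, n = 4) in normal and 88.2 ± 5.2 CPM in DN rats without overlap, and its adjusted p was 0.0716 in edgeR. The fold changes of the 11 ran from -0.21 to 0.25. Psmd14, the deubiquitinase that removes the chain before degradation, averaged 31.5 ± 2.4 and 27.5 ± 2.5 CPM. Of the assembly chaperones none was called, and Psmd10 averaged 1.81 ± 0.60 and 1.54 ± 0.48 CPM. The activators other than Psme4 lay above 0. Psme1 and Psme2, which form the PA28 ring together, had log2 fold changes of 0.37 ± 0.13 and 0.22 ± 0.15, and Psme3, which forms the nuclear PA28 gamma, had 0.22 ± 0.10. Their adjusted p-values were 0.0624, 0.317 and 0.13 by edgeR's quasi-likelihood test, and all 16 values of each of the 3 genes were fractions. Psmc3ip and Psme3ip1 had log2 fold changes of 0.05 and 0.01.

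At an unadjusted p under 0.05, 10 of the 43 genes were higher in DN rats (23.3%) and 4 were lower (9.3%), against 17.5% and 19.4% of all genes tested. The 4 lower genes were Psma3l, Psma5, Psmc6 and Psme4. Groups did not overlap for 5 genes that were higher (Psmb4, Psmb5, Psmc3, Psmc4 and Psmd4) and 3 that were lower (Psma3l, Psmc6 and Psme4), 11.6% and 6.98% of the 43, against 11.2% and 13.1% of all genes. The counts among the 43 depended on scaling. With library totals in place of TMM, 8 were higher and 8 lower at an unadjusted p under 0.05. At an adjusted p under 0.05, 1 was higher and 5 lower. The median log2 fold change of all genes moved to -0.05. The shares of all genes with library totals are not reported here, so these counts have no background beside them.

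The calls also depended on single rats. Without normal replicate 3, normal replicate 4, DN replicate 1 or DN replicate 2, Psme4 was the only call left. Without normal replicate 1, 3 genes were called (Psmb5, Psmc6 and Psme4). Without normal replicate 2, the rat with the highest summed leukocyte markers, 11 genes were called, among them the 6 above, Psma5, Psmb3, Psmb10, Psmd9 and Psme1. Without DN replicate 3, the rat rich in muscle markers, 5 were called, and all 5 were among the 6. The share of all genes called in each of these settings is not reported here, so these counts have no background beside them. The 48 partner genes tested below had 8 calls with all rats, 17 without normal replicate 2 and 3 without normal replicate 4.

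The immunoproteasome genes were far less abundant than the constitutive ones. Per kilobase Psmb8, Psmb9 and Psmb10 had 17.6, 14.0 and 16.1 CPM per kb, against 145, 84.6 and 102 CPM per kb for Psmb5, Psmb6 and Psmb7. Psmb8 was at 7.8% to 30.7% of the CPM of Psmb5 in the 16 rats, with the highest value in normal replicate 2. Psmb8 read 16.5, 37.2, 20.1 and 12.9 CPM in normal rats and 22.5, 22.05, 14.7 and 12.4 CPM in DN rats. Psmb9 read 12.2, 28.8, 12.9 and 10.6 CPM in normal rats and 12.9, 15.9, 9.26 and 9.33 CPM in DN rats. Psmb10 read 12.1, 26.8, 12.6 and 10.98 CPM in normal rats and 19.1, 19.3, 15.2 and 15.7 CPM in DN rats. In all 3 genes normal replicate 2 was the highest of the 16 rats, and the groups overlapped.

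The same rat was the highest of 16 in 8 of the 11 class I presentation and interferon partner genes with at least 10 counts and in 10 of 16 leukocyte markers, while it was the highest in 5.95% of 15809 genes. These counts were made for this rat alone, which was picked after its values were seen, so they are a description and no test. Tap1, the peptide transporter gene that lies between Psmb8 and Psmb9 in the order of RefSeq genes, read 37.8 CPM there and 10.3 to 14.8 CPM in the other normal rats. Irf1, a transcription factor of the interferon response, read 46.7 CPM there and 16.7 to 21.8 CPM in the others. The part of leukocyte content in these values was not tested.

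**Figure D4:**
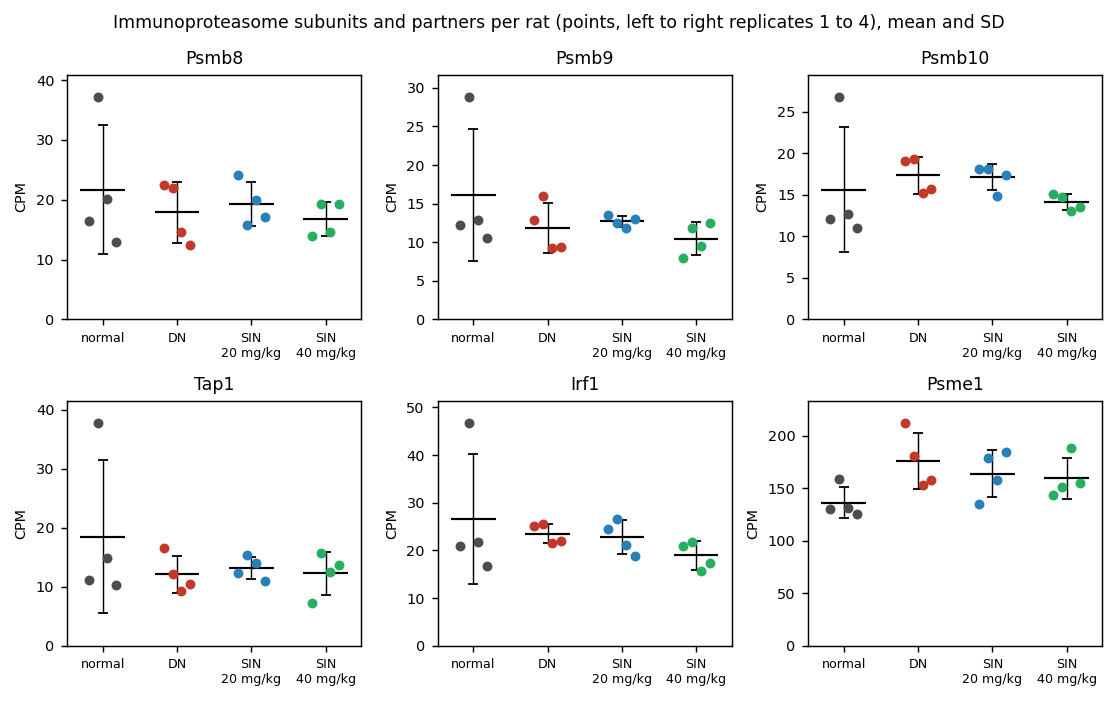
CPM (vertical axis, from 0) of the immunoproteasome genes Psmb8, Psmb9 and Psmb10, of Tap1 and Irf1 and of the activator gene Psme1, 1 point per rat in 4 groups, with the mean as a line and the SD as a bar. Normal replicate 2 is the highest of 16 rats in the first 5 panels, at 37.2, 28.8 and 26.8 CPM for the immunoproteasome genes.

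With all rats, the log2 fold changes in DN over normal were -0.27 ± 0.32 for Psmb8, -0.44 ± 0.32 for Psmb9 and 0.15 ± 0.27 for Psmb10. Adjusted p-values were 0.563, 0.345 and 0.707 by edgeR's quasi-likelihood test. Without normal replicate 2 these fold changes became 0.11, -0.01 and 0.54, and the median of the 3 turned from -0.27 to 0.11. Psmb10 then passed, with an adjusted p of 0.027 by edgeR's quasi-likelihood test, in a range of 0.027 to 0.972 over its alternatives. Its 4 DN rats, at 15.2 to 19.3 CPM, were above the other 3 normal rats, at 10.98 to 12.6 CPM.

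SIN (20 mg/kg) was next compared with DN, to ask whether treatment changed these genes in diabetic kidneys. No gene passed at an adjusted p under 0.05 in edgeR's quasi-likelihood test, 0 of 43 proteasome genes and 0% of all 15724 genes, and DESeq2 called 0 of the 43. At an unadjusted p under 0.05, 4 of the 43 were higher (9.3%) and 1 was lower (2.33%), against 9.2% and 6.24% of all genes. With library totals in place of TMM these were 7 and 0, and in DESeq2 they were 4 and 4. The shares of all genes in these settings are not reported here. Groups did not overlap for 3 genes that were higher (6.98%; Psmc3ip, Psmc6 and Psme4) and 0 that were lower, against 5.34% and 3.65% of all genes. The median log2 fold change was -0.02 over the 43 genes and -0.01 over all genes.

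Psme4 had the smallest p. It read 86.1, 56.6, 74.8 and 56.2 CPM at 20 mg/kg, all above the 4 DN rats, and the log2 fold change was 0.56 ± 0.17 (adjusted p = 0.27, edgeR's quasi-likelihood test). Psmc6 read 59.7, 30.1, 42.8 and 33.8 CPM, also above all DN rats, of which the highest was at 30.0 CPM. Its log2 fold change was 0.57 ± 0.20 with all rats and 0.33 without replicate 1 of the treated group. Psma3l read 86.5, 54.4, 75.2 and 63.4 CPM, which overlapped the DN rats. The recombination gene Psmc3ip averaged 5.97 ± 0.70 CPM in DN rats and 7.70 ± 0.57 CPM at 20 mg/kg without overlap, and accounts for 1 of the 4 higher genes. Psmc4 was the lower gene, at 78.95, 105, 94.6 and 102 CPM, and the cap subunit Psmd8 just missed, with a log2 fold change of -0.24 ± 0.11. In the alpha ring 7 of 7 fold changes were above 0 (median 0.23), or 6 of 7 with RLE scaling. In the beta ring 7 of 7 were below 0 (median -0.10), or 6 of 7 with library totals. None of these genes was called, and 7698 of all 15724 fold changes were above 0.

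The immunoproteasome genes were close to their DN levels at 20 mg/kg. Psmb8 averaged 19.3 ± 3.7 CPM (SD, n = 4), Psmb9 12.7 ± 0.74 CPM and Psmb10 17.1 ± 1.5 CPM. The DN rats averaged 17.9 ± 5.1, 11.9 ± 3.2 and 17.3 ± 2.2 CPM. The log2 fold changes were 0.10 ± 0.21, 0.10 ± 0.18 and -0.02 ± 0.13, and each of them changed sign when a single rat was left out.

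The higher dose was compared with the same DN rats, so its values and those of the lower dose and of DN over normal are not independent. Again 0 of 43 genes and 0% of all 15530 genes passed in edgeR's quasi-likelihood test. DESeq2 called 1 of the 43, Psme4, which was higher at 40 mg/kg. At an unadjusted p under 0.05, 3 of the 43 were higher (6.98%) and 5 were lower (11.6%), against 9.9% and 7.21% of all genes. With library totals in place of TMM 7 were higher and 2 lower. The shares of all genes with DESeq2 or with library totals are not reported here, so those counts have no background beside them. Groups did not overlap for 3 genes that were higher (Psma4, Psmc6 and Psme4) and 3 that were lower (Psmb7, Psmb10 and Psmc4), 6.98% each, against 6.43% higher and 3.99% lower over all genes. The median log2 fold change was -0.07 over the 43 genes and 0.01 over all genes.

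Psme4 read 67.7, 63.7, 68.9 and 83.2 CPM at 40 mg/kg, all above the DN rats, which reached 53.3 CPM. The log2 fold change was 0.62 ± 0.14, and its adjusted p was 0.175 in edgeR's quasi-likelihood test, with a range of 0.0106 to 0.392 over the alternatives. Here genes longer than 5000 bases had a median log2 fold change of 0.15 and those of up to 1500 bases one of -0.05, and at 20 mg/kg these medians were 0.07 and -0.01. Psma4 read 388, 354, 377 and 379 CPM, above the DN rats at 218, 223, 324 and 351 CPM, with a log2 fold change of 0.43 ± 0.16. Psmc6 read 33.2, 33.8, 32.9 and 47.4 CPM, above all DN rats, with 0.40 ± 0.15.

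In the alpha ring 6 of 7 fold changes were above 0 (median 0.16) and in the beta ring 7 of 7 were below 0 (median -0.18) under each scaling tried, with none called, while 7916 of all 15530 fold changes were above 0. The 5 lower genes at an unadjusted p under 0.05 were Psmb3, Psmb5, Psmb7, Psmb10 and Psmc4, and 4 of them encode beta subunits. Psmb5 read 127, 117, 133 and 108 CPM against 163, 157, 127 and 159 CPM in DN rats, where the groups overlapped through DN replicate 3. Its log2 fold change was -0.32 ± 0.11. Psmc4 read 98.4, 99.7, 90.0 and 79.4 CPM, below all DN rats, with -0.30 ± 0.10. Psmb10 read 15.1, 14.7, 13.1 and 13.5 CPM, just below the lowest DN rat at 15.2 CPM, with -0.30 ± 0.12. Psmb7 averaged 129 ± 3.2 CPM against 146 ± 7.9 CPM in DN rats, and Psmb3 averaged 74.2 ± 6.8 CPM against 87.3 ± 5.0 CPM. Their adjusted p-values in edgeR's quasi-likelihood test ran from 0.211 for Psmb5 and Psmc4 to 0.28 for Psmb7.

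The levels of the genes called in DN rats can be set side by side over the groups. Psme4 averaged 91.3 ± 16 CPM (SD, n = 4) in normal rats, 46.1 ± 7.5 in DN rats, 68.4 ± 15 at 20 mg/kg and 70.9 ± 8.5 at 40 mg/kg. Psmb5 averaged 107 ± 14, 152 ± 17, 126 ± 18 and 121 ± 11 CPM in the same order. Psmc6 averaged 41.4 ± 6.4, 28.0 ± 3.2, 41.6 ± 13 and 36.8 ± 7.1 CPM. Psmc3 averaged 130 ± 12, 162 ± 11, 142 ± 14 and 144.5 ± 7.1 CPM, and Psmc4 averaged 89.1 ± 11, 113 ± 9.5, 95.1 ± 12 and 91.9 ± 9.3 CPM. Psma3l averaged 75.3 ± 9.2, 55.4 ± 4.8, 69.9 ± 14 and 61.4 ± 9.8 CPM. All 3 comparisons use the same 4 DN rats.

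The doses were compared with each other last. No proteasome gene passed in edgeR's quasi-likelihood test or in DESeq2, and in edgeR 1 of all 15657 genes did (0.00639%). At an unadjusted p under 0.05, 0 of the 43 were higher at 40 mg/kg and 1 was lower (2.33%), against 2.41% and 2.57% of all genes. The lower gene was Psmb10, at 17.1 ± 1.5 CPM (SD, n = 4) for 20 mg/kg and 14.1 ± 0.95 CPM for 40 mg/kg, with a log2 fold change of -0.29 ± 0.12 (adjusted p = 0.961, edgeR's quasi-likelihood test). Psmb8 and Psmb9 had -0.21 ± 0.17 and -0.28 ± 0.16. Groups did not overlap for 0 genes that were higher and 2 that were lower (4.65%), against 1.86% and 1.46% of all genes. These were Psma7 and Psmc3ip, with -0.16 ± 0.07 and -0.25 ± 0.13. The largest fold change upward was 0.09. Psmc2 and Psmd6 completed the genes of smallest p, with -0.13 ± 0.08 and -0.18 ± 0.12. A p above the threshold does not show that the doses acted alike.

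Genes that work with the proteasome were taken from 4 lists, for which the table held 49 rows, 48 of them tested. In DN over normal 5 were higher and 3 were lower at an adjusted p under 0.05 (edgeR's quasi-likelihood test), 10.4% and 6.25%, against 8.74% and 10.8% of all genes. Ubiquitin supply and delivery had 3 of 16 higher (18.8%) and 0 lower. Among them was Ubqln4, a shuttle factor that carries ubiquitinated proteins, at 105 CPM on average in normal and 135 CPM in DN rats, with a log2 fold change of 0.36 ± 0.10 (adjusted p = 0.0377, edgeR's quasi-likelihood test).

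Assembly and regulators had 1 of 14 higher and 1 lower. Psmg4, a chaperone of the alpha ring, averaged 11.8 ± 1.4 CPM (SD, n = 4) in normal and 17.5 ± 0.9 CPM in DN rats, and Zfand5, an activator of the 26S proteasome, averaged 49.8 ± 2.6 and 36.7 ± 2.8 CPM. Both were without overlap, with log2 fold changes of 0.58 ± 0.12 and -0.43 ± 0.09. The maturation factor Pomp and the inhibitor Psmf1 had 0.03 ± 0.14 and 0.31 ± 0.10 and did not pass. Of 7 genes of proteasome transcription 0 were higher and 1 was lower. This was Ddi2, the protease that cuts and so releases NRF1, at 144 ± 5.5 and 105 ± 8.6 CPM without overlap. Ddi2 has 9462 bases, and 20.0% of all genes longer than 5000 bases were called lower in DN rats. The part of length in the Ddi2 value was not tested. Nfe2l1 itself, the gene of NRF1, averaged 176 ± 13 and 189 ± 24 CPM. Of 11 tested class I presentation and interferon partners, the peptide loading gene Tapbp was higher, and all of its values were fractions. Its log2 fold change was 0.53 ± 0.15, and the light chain gene B2m was lower, with -0.40 ± 0.12. Tap1 and Irf1 had -0.61 ± 0.40 and -0.17 ± 0.28, and without normal replicate 2 they had -0.0019 and 0.24.

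In SIN (20 mg/kg) over DN 0 of these 48 genes were called in edgeR's quasi-likelihood test. There 6 were higher (12.5%) and 3 were lower (6.25%) at an unadjusted p under 0.05, against 9.2% and 6.24% of all genes, or 10 and 1 with library totals. Among the lower genes were Mafk and Ubb, which were named after their values were seen. The ubiquitin gene Ubb had a log2 fold change of -0.24 ± 0.11. In SIN (40 mg/kg) over DN 0 were called in the same edgeR test. At an unadjusted p under 0.05, 3 were higher (Ecpas, Ngly1 and Uba6) and 3 lower (Irf1, Psmf1 and Psmg3), 6.25% each, again named after their values were seen, against 9.9% and 7.21% of all genes. With library totals these were 6 and 0, and the shares of all genes with library totals are not reported here. Uba6, an enzyme that activates ubiquitin, had 0.61 ± 0.15 at 20 mg/kg and 0.61 ± 0.13 at 40 mg/kg over the same DN rats. Uba6 and Ecpas are long, with 6567 and 5813 bases. Genes longer than 5000 bases had median log2 fold changes of 0.07 at 20 mg/kg and 0.15 at 40 mg/kg. The part of length in these values was not tested. DESeq2 called Uba6 alone of the 48 in each SIN comparison, with adjusted p-values of 0.0341 at 20 mg/kg (range over the alternatives 0.0341 to 0.544) and 0.00868 at 40 mg/kg (range 0.00868 to 0.392). The share of all genes that DESeq2 called is not reported here, so this count has no background beside it. Between the doses 0 were called in edgeR or DESeq2, and 1 of 2 rows of Rps27a was lower at an unadjusted p. Nfe2l1 had log2 fold changes of -0.09 ± 0.10 at 20 mg/kg and 0.09 ± 0.11 at 40 mg/kg over DN, and Pomp had 0.17 ± 0.13 and 0.03 ± 0.12.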

How the data were processed

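Kidney RNA of 16 rats, 4 a group, was measured by sequencing of poly(A)-selected libraries. Per the paper's methods, the authors used SeqPrep and Sickle for trimming and TopHat for alignment to the Ensembl rat genome Rnor_6.0. The submitters' processing notes also name Bowtie, RSEM and edgeR, without versions. The authors deposited estimated counts per gene for each rat, not normalized, with 19616312 to 25217030 counts a library. Of the nonzero values 74.3% were whole within 1e-06, and all were rounded to whole counts. Columns were joined to rats by library number, and 4 columns of single libraries that no sample label names and 5 columns of means were not used. Whether rats were housed or processed together is not given in the sources used here.

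Each pair of groups was tested with edgeR 4.0.16 in R 4.3.3 (quasi-likelihood test, two-sided, TMM scaling, filterByExpr, Benjamini-Hochberg adjustment over all genes tested, called at an adjusted p under 0.05 with no fold minimum). The log2 CPM values add a prior count of 2. Alternatives were DESeq2 1.42.0, RLE scaling, library totals only, no filter, a minimum of 10 counts in every rat, a replicate block, a single fit over all 16 rats, each rat left out, and counts without Psmc3ip, Psme3ip1 and Psma3l. The immunoproteasome median without normal replicate 2 was chosen after seeing the data. The steps were tested on simulated data.

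The members and the lists were chosen with earlier results of these data known. The rule named Psmb5 to Psmb10 and the 4 activators, the called members of each comparison (at most 10, filled to 6 by p), the highest and lowest members, untested members and those that are no subunit. Of the other pathway lists it named called genes, at most 5 a comparison, with Nfe2l1, Pomp, Psmf1, Tap1 and Irf1, and all other genes were named after their values were seen. Single values of some genes of these lists are not reported here. The limit given for a gene with no count covers counting error only, while SEs and SDs are over rats. No coordinates were moved between Rnor_6.0 and GRCr8.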

Additional observations from a re-analysis of the deposited data

Results flagged for a closer look

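Single rats far from the other 3 of their group were looked for in 120 groups of 4 values with Dixon's test at its 95% level. Of these groups 8 were flagged, a share near the 5% that chance gives. In the normal group, replicate 2 was high in Psmb10 (26.8 CPM against 10.98 to 12.6 CPM), Psmb9 (28.8 CPM against 10.6 to 12.9 CPM) and Psme1 (159 CPM against 126 to 131 CPM). These are genes of the immunoproteasome and of its activator PA28. Psmb8 in the same rat (37.2 CPM against 12.9 to 20.1 CPM) was not among the 8. That rat had the highest summed leukocyte markers of all 16 rats, at 1328 CPM, of which 1012 CPM was Cd74. The part of leukocyte content was not tested.

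Psmc6 was low in DN replicate 1 (23.2 CPM against 29.2 to 30.0 CPM) and high in SIN (40 mg/kg) replicate 4 (47.4 CPM against 32.9 to 33.8 CPM). Psme3 was low in SIN (20 mg/kg) replicate 1 (85.7 CPM against 101 to 104 CPM), and the same rat had the highest sum of the 3 immunoproteasome genes in its group (55.9 CPM against 46.5 to 47.5 CPM). The sum of Psmb5, Psmb6 and Psmb7 was low in DN replicate 3 (324 CPM against 376 to 385 CPM), the rat with 717 CPM of muscle and connective tissue markers, and the part of that tissue was not tested.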

How the results depend on the processing

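The 6 calls in DN over normal became 11 with DESeq2, 11 with all 16 rats in one fit and 3 with the replicate block, and 1 to 11 with a rat left out. At an unadjusted p under 0.05 the 14 genes became 10 to 23 with a rat left out, the highest without normal replicate 2. In SIN (20 mg/kg) over DN the 5 genes at an unadjusted p became 8 with DESeq2, 9 with all 16 rats in one fit, 2 with the replicate block and 3 without Psmc3ip, Psme3ip1 and Psma3l, and 1 to 9 with a rat left out: 1 without replicate 1 of either group, 2 without SIN (20 mg/kg) replicate 3, 8 without replicate 4 of either group and 9 without SIN (20 mg/kg) replicate 2. In SIN (40 mg/kg) over DN DESeq2 called 1 gene, and the 8 genes at an unadjusted p became 3 to 12 with a rat left out, with 4 without DN replicate 1 or 2 and 3 without SIN (40 mg/kg) replicate 4. Between the doses the 1 gene became 2 with DESeq2, 2 with library totals and 0 with the replicate block, and 0 to 1 with a rat left out (0 without SIN (20 mg/kg) replicate 2 or SIN (40 mg/kg) replicate 3). The shares of all genes in these settings are not reported here, and the cause was not tested. The deviations of same-numbered rats from their group means had correlations of -0.239 to 0.056. Rats of unlike number were not compared, so these values cannot tell whether a replicate number stands for shared housing or processing.

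The fold change of Psmb10 in SIN (20 mg/kg) over DN turned to 0.032 with library totals, and those of Pomp and Psme3ip1 in DN over normal to -0.034 and -0.051. With a rat left out, these fold changes of Psmb5 to Psmb10, the activators, the genes of smallest p and the partner genes given with a fold change ran across 0: Irf1 (-0.34 to 0.24), Pomp (-0.11 to 0.091), Psmc3ip (-0.00038 to 0.13) and Psme3ip1 (-0.071 to 0.072) in DN over normal, Pomp in SIN (40 mg/kg) over DN (-0.030 to 0.16), Psmb8 in DN over normal (-0.46 to 0.11), in SIN (20 mg/kg) over DN (-0.036 to 0.23) and in SIN (40 mg/kg) over DN (-0.23 to 0.021), Psmb9 (-0.0041 to 0.27) and Psmb10 (-0.076 to 0.042) in SIN (20 mg/kg) over DN, and Psme2 in SIN (20 mg/kg) over DN (-0.16 to 0.027) and SIN (40 mg/kg) over DN (-0.16 to 0.014). Of the other alternatives for these genes, 467 with all rats and 489 with a rat left out kept direction and side of the threshold. Of the rest, 12 and 47 lost a call and 8 and 3 gained one. At 4 rats a group and this depth, changes that were not called cannot be taken as absent.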
